A study of Mus musculus with 17 samples.

Results

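The keratins of the colon epithelium were described in control mice and in mice of a Gulf War illness (GWI) model. The keratins were the entries of the count table whose symbol equalled Krt7, Krt8, Krt18, Krt19, Krt20 or Krt23, the 6 keratins of simple epithelium, or Krt5, Krt14, Krt13 or Krt4, the 4 keratins of squamous epithelium. All 10 were found among 23719 entries. RNA of colon tissue from 17 male C57BL/6 mice aged 32 to 34 weeks was sequenced after poly(A) selection. The 8 GWI mice drank water with 2 mg/kg pyridostigmine bromide, a reversible inhibitor of acetylcholinesterase, over 7 days, then had 21 days of recovery, and tissue was taken at day 30. The 9 Control mice received water alone. The GWI group stands for the illness through this single drug in male mice, and other exposures are not named in the sources used here. The layers of the colon wall and the stretch of colon that were taken are not named in the sources used here. Total counts ranged from 16744096 to 20741212 in Control libraries and from 16293537 to 18389686 in GWI libraries.

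Keratins are the intermediate filament proteins of epithelial cells and assemble as pairs of a type I and a type II protein. In the colon the type II protein Krt8 pairs with the type I proteins Krt18, Krt19 and Krt20, and Krt20 is most abundant in the differentiated cells near the mucosal surface. Krt5 and Krt14 belong to the basal layer of stratified squamous epithelium and Krt4 and Krt13 to its upper layers, so their transcripts in a colon sample can serve as a guide to anal tissue.

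Most simple keratins were abundant, with Krt23 below the middle of the tested genes at rank 9036 of 14146. All 6 had higher mean levels in GWI colons, and none passed the test. The squamous keratins had few counts in every library. After edgeR's filter on low counts, 7 of the 10 keratins were tested, all 6 simple keratins and Krt14, while Krt5, Krt13 and Krt4 failed the filter. Levels are given as CPM, counts scaled by TMM-adjusted library size, and log2 fold changes are GWI against Control. Of the 14146 genes tested by edgeR's quasi-likelihood test, 1889 were called higher in GWI colons at an adjusted p under 0.05, which is 13.4%, and 1903 were called lower, which is 13.5%. Of the 7 tested keratins, 0 were called higher and 0 lower by this test, and 2, Krt8 and Krt19, had an unadjusted p under 0.05, as did 5851 of all genes tested. The DESeq2 Wald test called 1 keratin higher (Krt19), limma-voom with quality weights called 3 higher (Krt8, Krt19 and Krt20), and neither called a keratin lower. Over all genes, limma-voom called 3911 of 14146 higher and 4180 lower, and DESeq2 called 2198 of 19717 higher and 2434 lower. The 19717 entries were taken before edgeR's filter on low counts. They include entries that DESeq2's own filter may leave without an adjusted p, so shares of 19717 and of 14146 are not directly comparable. The median log2 fold change was 0.34 over the 7 tested keratins against -0.06 over all genes tested. Scaling to the summed counts of 12 epithelial genes that are not keratins moved the median of all genes to -0.28 and the calls to 551 higher and 4152 lower. With upper-quartile factors the median was -0.15, with 1214 higher and 2992 lower. In 1.83% of tested genes every GWI mouse lay above every Control mouse, and in 0.523% every GWI mouse lay below. This held for 0 of the 7 tested keratins.

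For the simple keratins 3 libraries are described here, each at an end of its group. Control replicate 1 and GWI replicate 5 had the highest and Control replicate 9 the lowest summed level of the simple keratins of their groups. The sum was 12705 CPM in Control replicate 1, 4008 CPM in Control replicate 9 and 12309 CPM in GWI replicate 5. The medians were 7015 CPM in Control mice and 10758 CPM in GWI mice. GWI replicate 6 was close to GWI replicate 5, at 11977 CPM. Summed posterior Hox genes, which mark the caudal end of the gut, reached 129.57 CPM in Control replicate 1 and 89.1 CPM in GWI replicate 5, and at most 45.0 CPM in any other library. These sums came mostly from Hoxa13 (71.0 and 75.3 CPM) and Hoxb13 (55.5 and 11.4 CPM), while Hoxd10 (0.505 and 1.01 CPM) and Hoxd11 (0.442 and 0.757 CPM) were the lowest of their groups in the same 2 libraries. Control replicate 9 had the lowest smooth muscle sum of the Control group, 3690.0 CPM, and the highest sum of surface colonocyte genes, 37263 CPM, of which Car1 alone was 29280 CPM. Of the 10 genes in that sum, Control replicate 9 was the highest library in Car1 only and Control replicate 1 in 5. Control replicates 6 and 7 held small-intestine genes at 619.54 and 1467 CPM. The part of these differences in the keratin values was tested only by leaving libraries out and, for smooth muscle, by a muscle to epithelium covariate.

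Krt8 is the main type II keratin of simple epithelium (ENSMUSG00000049382.10, chromosome 15, 101996698 to 102004482, GRCm38). Its level in Control colons was lowest at 2200.2 CPM in replicate 9, had a median of 3914.5 CPM and was highest at 6479 CPM in replicate 1. GWI colons ranged from 3940.3 CPM in replicate 1 over a median of 5549 CPM to 6316 CPM in replicate 5. All 8 GWI mice lay above the Control median, yet the groups overlapped, since Control replicates 1, 2, 4 and 5 were above GWI replicates 1 and 8, and Control replicate 1 was above every GWI mouse. GWI against Control, edgeR gave a log2 fold change of 0.40 (standard error, SE, 0.18, adjusted p = 0.107). Without Control replicate 1 it was 0.52 with an adjusted p of 0.0231. It was 0.19 with scaling to the epithelial genes and 0.30 without Control replicates 6 and 7. Over the 31 alternative fits the adjusted p ran from 0.0141 to 0.367 and was under 0.05 in 5. A change in the number of epithelial cells and a change in keratin RNA per cell cannot be told apart in bulk tissue, here and for each keratin that follows.

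Krt18, the classical type I partner of Krt8, lies 23697 bases from it on chromosome 15 (102028180 to 102032027). Control colons ranged from 245 CPM in replicate 9 to 825 CPM in replicate 1, with a median of 366 CPM. In GWI colons the range was 349 CPM in replicate 8 to 601 CPM in replicate 5, with a median of 391 CPM. The groups overlapped, and 1 mouse of each, Control replicate 1 and GWI replicate 5, stood above all the rest. This gene had a log2 fold change of 0.09 (SE 0.20, adjusted p = 0.756, edgeR). It moved with the scaling and with single libraries: it was -0.11 with scaling to the epithelial genes, 0.31 without Control replicate 1 and -0.01 without GWI replicate 5, with adjusted p-values of 0.643, 0.0634 and 0.980. Over the 31 alternative fits the adjusted p ran from 0.0634 to 0.999.

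Krt19 is a small type I keratin without the usual tail domain. In Control colons it was lowest at 818 CPM in replicate 9, with a median of 1929.9 CPM and a highest value of 2777 CPM in replicate 2. In GWI colons it was lowest at 2106 CPM in replicate 8, with a median of 2879 CPM and a highest value of 3227 CPM in replicate 5. All 8 GWI values exceeded the Control median and 5 exceeded the highest Control value, but the ranges overlapped. Its log2 fold change was 0.52, with SE 0.19 and an adjusted p of 0.0515 (edgeR), and did not pass the threshold. Over the 31 alternative fits the adjusted p ran from 0.0058 to 0.183 and was under 0.05 in 10. Leaving out Control replicate 1, 2 or 9 or GWI replicate 1 or 8 gave 0.0276, 0.0307, 0.0357, 0.0468 and 0.0418. With scaling to the epithelial genes the log2 fold change was 0.30 (adjusted p = 0.183, edgeR).

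Krt20, the keratin of differentiated surface cells, spread most widely relative to its mean among the abundant members. Control colons ranged from 569 CPM in replicate 7 to 2713 CPM in replicate 1, with a median of 883 CPM. GWI colons ranged from 709 CPM in replicate 1 to 2064 CPM in replicate 5, with a median of 1572 CPM. Without Control replicate 1, the highest Control value was 1094 CPM, and 6 GWI mice exceeded it. The log2 fold change was 0.50 (SE 0.29, adjusted p = 0.192, edgeR), and without Control replicate 1 it was 0.82 (adjusted p = 0.0070). It was 0.30 with scaling to the epithelial genes and 0.38 without Control replicates 6 and 7. The adjusted p was under 0.05 in 5 of the 31 alternative fits, over a range of 0.0070 to 0.367. The surface colonocyte genes as a list had 0 of 10 called higher and 0 lower (edgeR), 2 with an unadjusted p under 0.05, and a median of 0.19, while DESeq2 called 2 higher and limma-voom 5 higher and 1 lower. Their most abundant gene, Car1, had a log2 fold change of -0.06.

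Krt7 and Krt23 were the less abundant simple keratins. Krt7, a type II keratin of ducts and of parts of the gut, ranged in Control colons from 49.0 CPM in replicate 1 to 174 CPM in replicate 2, with a median of 161 CPM. In GWI colons it ranged from 86.1 CPM in replicate 5 to 211 CPM in replicate 1, with a median of 173 CPM. Here the order was turned around, for the same Control replicate 1 and GWI replicate 5 that were highest in Krt18 and Krt20 were the lowest of their groups in Krt7. For Krt7, edgeR gave 0.34 as the log2 fold change (SE 0.22, adjusted p = 0.247). Without Control replicates 1 and 9 and GWI replicate 5, which were chosen after their values were seen, it was 0.23 (adjusted p = 0.0468). This was the only 1 of the 31 fits under 0.05, in a range up to 0.752. With scaling to the epithelial genes Krt7 was at 0.10, and with the muscle to epithelium covariate at 0.14 (adjusted p = 0.752 and 0.718). Krt23, a type I keratin, ranged from 5.23 to 15.1 CPM in Control and from 9.23 to 17.1 CPM in GWI colons, and its medians were 11.9 and 13.9 CPM. The groups overlapped, and 5 of 8 GWI mice lay above the Control median (log2 fold change 0.24, SE 0.18, adjusted p = 0.312, edgeR). The log2 fold change of Krt23 was 0.15 without Control replicate 6 and 0.055 with scaling to the epithelial genes.

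**Figure D1:**
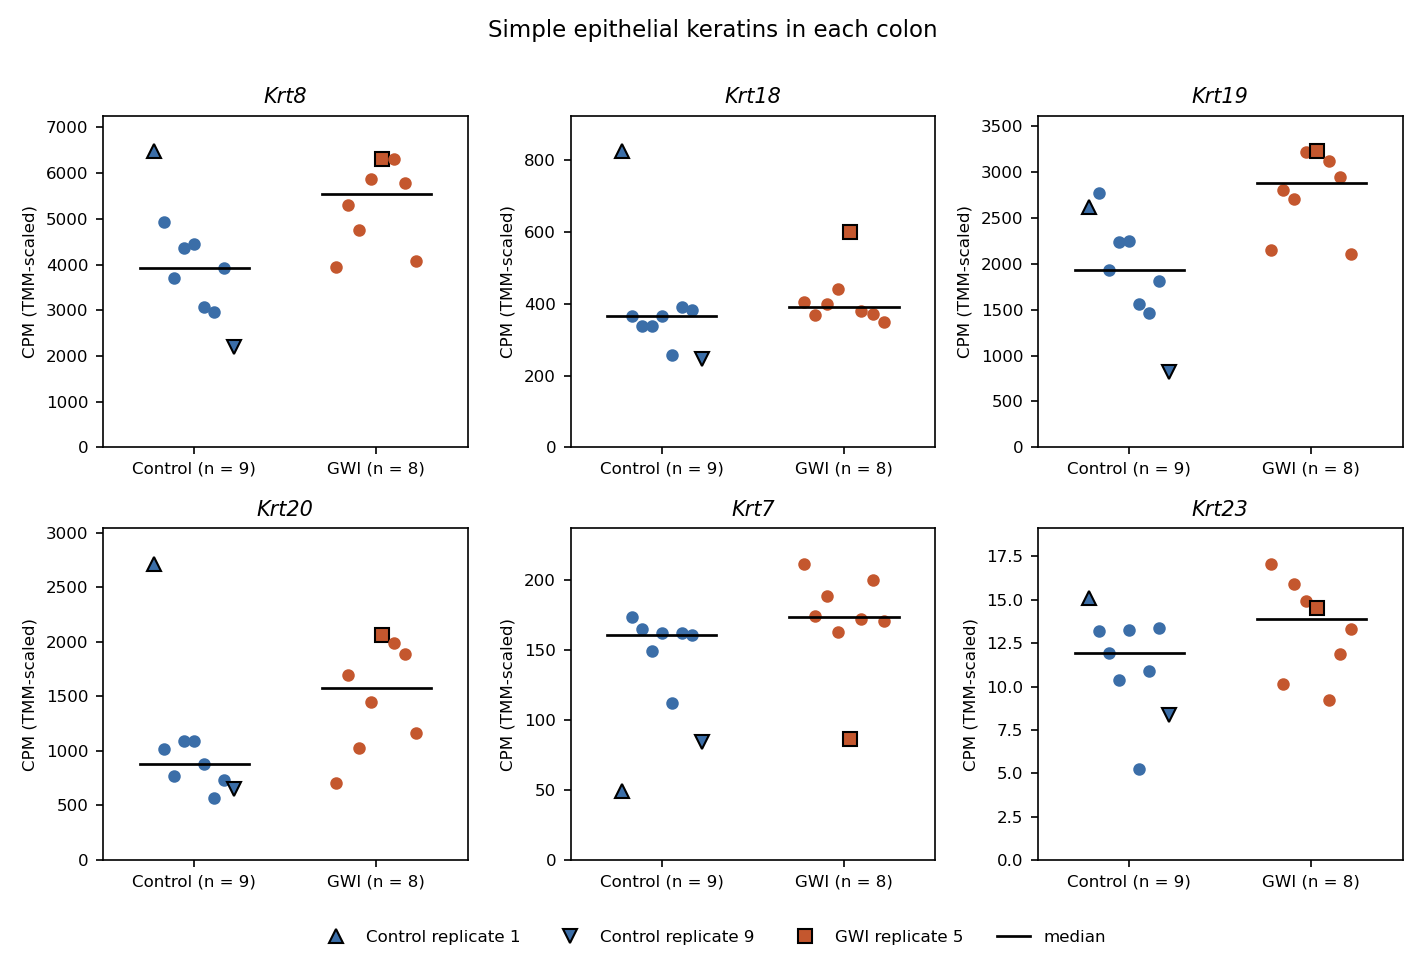
Level of the 6 simple keratins in each colon, in CPM on TMM-scaled library sizes, for 9 Control and 8 GWI mice; points are mice, lines are group medians, and 3 libraries have symbols of their own. The groups overlap for all 6 genes, and Control replicate 1 and GWI replicate 5 are the highest of their groups in Krt18 and the lowest in Krt7.

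Of the squamous keratins, Krt14 had 5 to 29 counts per library, Krt5 0 to 18, Krt13 0 to 14 and Krt4 0 to 11. A count of 0 allows up to 3 counts, which is 0.133 to 0.209 CPM in these libraries, for counting error only. The summed squamous keratins were lowest at 0.993 CPM in Control replicate 7 and highest at 3.19 CPM in GWI replicate 7, with medians of 1.78 CPM in Control and 1.61 CPM in GWI colons. In every library the squamous keratins lay far below the simple keratins. That comparison cannot tell whether a library held a small amount of anal tissue, which was not tested. The groups overlapped for all 4 genes. Krt13 had a median of 1 count in Control colons, with 4 of 9 mice at 0, and of 6 counts in GWI colons, with 0 of 8 at 0, and was not tested. Krt5 had medians of 4 and 6 counts and Krt4 of 3 and 3.5 counts. Krt14 had 1.02 ± 0.336 CPM (SD, n = 9) in Control and 0.788 ± 0.324 CPM (SD, n = 8) in GWI colons, and edgeR gave a log2 fold change of -0.37 with SE 0.27 and an adjusted p of 0.319. Krt5 was highest in Control replicate 1, at 18 counts, and Krt14 was lowest of the Control group in that library, at 9 counts. Krt16, a keratin of squamous epithelium that is not among the 10 and was named after its values were seen, had 15 counts in that library and 0 or 1 in each of the others.

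**Figure D2:**
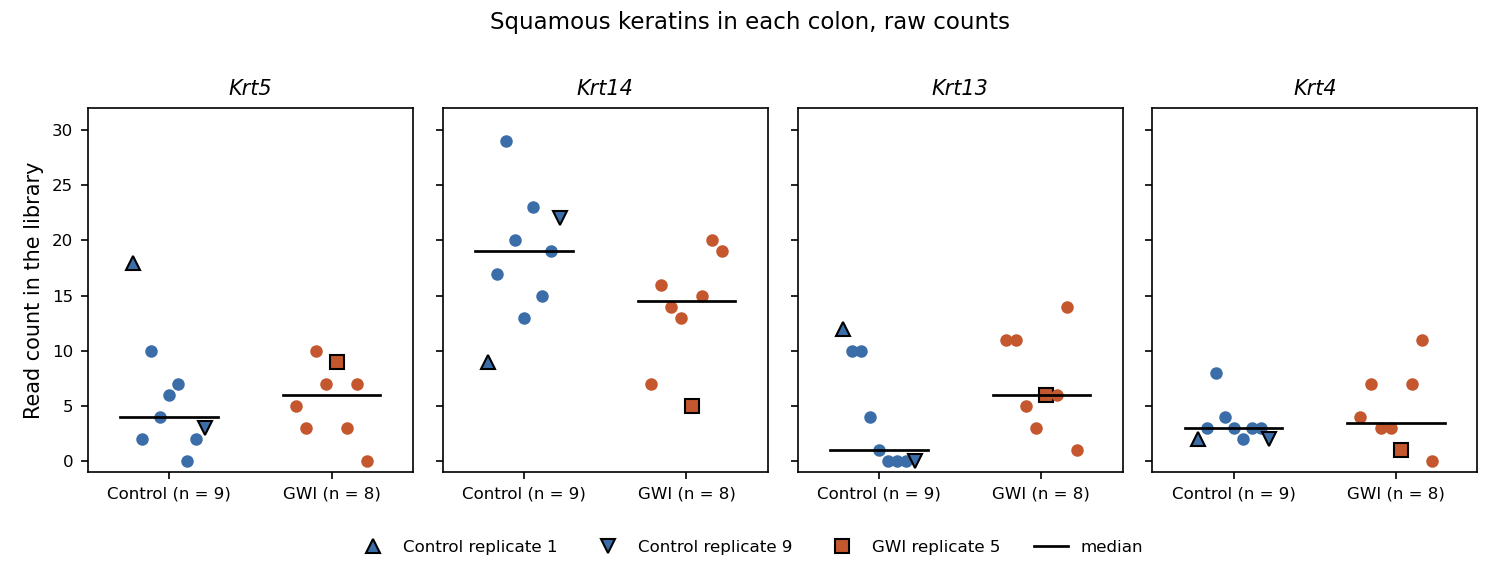
Raw read counts of Krt5, Krt14, Krt13 and Krt4 in each library of 9 Control and 8 GWI mice, with group medians as lines. No library exceeds 29 counts for any of these genes.

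Other genes of squamous epithelium ranged from 0 to 5475 counts per library. Of 20 such genes that are not keratins, 6 were tested, 0 were called higher and 0 lower by edgeR, 1 had an unadjusted p under 0.05, and their median log2 fold change was 0.27. DESeq2 called 0 and limma-voom 2 higher. The sum, 136 to 436 CPM in Control and 181 to 391 CPM in GWI colons, came mostly from Sfn, at a mean of 159 CPM over all mice, and next from Serpinb5, Pkp1 and Sprr1a. Their part in the result was not tested. The other 16 had at most 32 counts in any library. Among these Trp63, the master regulator of the basal layer, had at most 8 counts, the desmoglein Dsg3 at most 7, Krtdap at most 2 and Sprr1b at most 1, and Ly6d reached 32, Lor 27, Gsdmc 26 and Dsc3 23. Control replicate 1 had the highest level of 7 of the 20 genes, among them Ly6d at 2.02 CPM and Gsdmc at 1.64 CPM, beside at most 0.885 and 0.757 CPM in the other libraries. The other 13 peaked elsewhere, among them Trp63 in Control replicate 5, Dsg3 in Control replicate 7 and Krtdap in Control replicate 9. Control replicate 1 is the library with the most Krt5 and Krt16, and whether it holds anal tissue was not tested.

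Per kilobase of exon, the scale on which levels can be compared between genes, Krt8 was highest in Control colons at 2047 ± 642 CPM per kb (SD, n = 9). Krt19 followed at 1047 ± 329.7, Krt20 at 548 ± 337 and Krt18 at 271 ± 119 CPM per kb. The spreads between mice of Krt19 and Krt20 overlapped, as did those of Krt20 and Krt18. Within each library, however, the order was the same in every mouse, with Krt8 above Krt19, Krt19 above Krt20 and Krt20 above Krt18. Krt19 and Krt20 lay closest in Control replicate 1. Krt7 had 19.2 ± 6.19 and Krt23 7.22 ± 1.93 CPM per kb, and the length of Krt7 includes a transcript with a retained intron. Krt14 came next at 0.579 ± 0.191 CPM per kb. Krt5, Krt13 and Krt4 lay between 0.085 and 0.147 CPM per kb and did not differ beyond their spread. GWI colons had Krt8, Krt19, Krt20 and Krt18 in the same order, at 2704 ± 482, 1502 ± 241, 777 ± 257 and 289 ± 56.0 CPM per kb (SD, n = 8).

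Ratios between keratins of the same library do not depend on its depth. The log2 ratio of Krt20 to Krt8 ranged from -2.43 to -1.26 in Control colons (median -2.02) and from -2.47 to -1.61 in GWI colons (median -1.74). The ranges overlapped, with Control replicate 1 above every GWI mouse, and 6 of 8 GWI mice lay above the Control median. The difference of the means was 0.14 (standard error 0.17), with p = 0.429 in an exact two-sided permutation test over all 24310 divisions of the mice and an adjusted p of 0.429 over the 2 ratios. The log2 ratio of Krt18 to Krt8 ranged from -3.75 to -2.91 in Control colons (median -3.46) and from -4.05 to -3.28 in GWI colons (median -3.65). Most GWI mice, 6 of 8, lay below the Control median. The difference was -0.29 (standard error 0.14), with p = 0.0634 in the same exact test and an adjusted p of 0.127, which did not pass the threshold.

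Across the 17 mice Krt18, Krt19 and Krt20 varied with Krt8, while Krt7 and Krt23 had a Spearman rho with Krt8 of 0.11 and 0.35, which were not tested. Log2 CPM of Krt8 and Krt19 had a Pearson r of 0.96 (permutation p = 1e-05, the smallest that 100000 resamples can give, adjusted 5e-05 over 5 pairs) and a Spearman rho of 0.92 (permutation p = 1e-05, adjusted 2.5e-05). For Krt8 and Krt20, r was 0.88 (permutation p = 3e-05, adjusted 7.5e-05) and rho 0.92 (permutation p = 1e-05, adjusted 2.5e-05). Without the 2 farthest mice, Control replicates 7 and 9, r was 0.93 and 0.88, and after group means were subtracted it was 0.94 and 0.84. For Krt8 and Krt18, r was 0.71 (permutation p = 0.00147, adjusted 0.00245) and rho 0.62 (permutation p = 0.00946, adjusted 0.0158). With group means subtracted, that r was 0.73 with all mice and 0.39 without Control replicates 1 and 9, and rho with all mice was 0.56 (permutation p = 0.0213, adjusted 0.0355). Within the Control group alone r was 0.80, and within the GWI group alone it was 0.45. The squamous pairs have too few counts to read a relation from: r was -0.30 for Krt5 and Krt14 (permutation p = 0.235, adjusted 0.235; rho -0.32, permutation p = 0.209, adjusted 0.209) and 0.54 for Krt4 and Krt13 (permutation p = 0.0256, adjusted 0.0319; rho 0.49, permutation p = 0.04995, adjusted 0.0624), the latter falling to 0.41 without GWI replicates 7 and 8. Values of 1 library share its scaling and its share of epithelium.

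The promoters of Krt8 and Krt20, shown because only Krt20 among the keratins has the letters TATAAA and Krt8 is its abundant partner, are given as the 100 bases before each RefSeq gene start (GRCm38.p6), at chr15:102004343-102004442 and chr11:99438154-99438253, both on the minus strand. GENCODE starts Krt8 farther upstream, so the stretch shown lies inside the GENCODE gene. Of the 10 keratins, 8 had a promoter in the table, all but Krt19 and Krt4. The letters TATAAA were sought on both strands and are in capitals where found. They occur in 12.4% of 32851 promoters over 250 bases, and among the keratins in that of Krt20 alone. There they start 29 bases before the RefSeq start of Krt20. The variant CATAAA occurs in 10.8% of the promoters. Among the keratins it lies in Krt23 and in entry 1 of Krt13, starting 32 and 30 bases before the start.
Krt8: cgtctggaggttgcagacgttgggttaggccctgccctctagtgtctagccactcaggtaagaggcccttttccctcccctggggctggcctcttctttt
Krt20: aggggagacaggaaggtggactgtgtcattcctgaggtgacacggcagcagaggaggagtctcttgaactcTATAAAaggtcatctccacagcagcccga

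Of 55 keratin entries in the table, 15 were tested, and among the 8 that are not listed above 1 was called higher and 0 lower by edgeR. The called one was Krt8-ps, a processed pseudogene of Krt8 on chromosome 7 (23357125 to 23358069), inside the gene span of Nlrp4e and outside its exons. Krt8-ps ranged from 4.32 to 17.5 CPM in Control colons (median 10.3 CPM) and from 11.4 to 22.1 CPM in GWI colons (median 18.0 CPM). The groups overlapped, yet all 8 GWI values exceeded the Control median and 6 exceeded the highest Control value. The log2 fold change of Krt8-ps, 0.80 with SE 0.20, had an adjusted p of 0.00922 (edgeR), and all 31 alternative fits called it, with adjusted p-values of 4.90e-05 to 0.0309. For every 1000 counts of Krt8 there were 1.96 to 3.21 counts of Krt8-ps in Control and 2.80 to 3.73 in GWI colons. Whether the change of Krt8-ps differed from that of Krt8 was not tested.

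The count of Krt8-ps is uncertain, because its 945 bases in GENCODE match the Krt8 transcript at 98.6% over 941 aligned bases, with 13 mismatches. At 150 bases, the read length given in the methods of the study, 19.3% of its windows occur unchanged in Krt8, a share that takes neither the other read of a pair nor allowed mismatches into account. The aligned stretch of 120 bases with the most mismatches, 6, lies in the coding sequence of Krt8 and shows where the copies differ. It is given in GRCm38 for Krt8 across 2 exons at chr15:101998470-101998846 on the minus strand and for Krt8-ps at chr7:23357925-23358044 on the plus strand, with the mismatches in capitals.
Krt8: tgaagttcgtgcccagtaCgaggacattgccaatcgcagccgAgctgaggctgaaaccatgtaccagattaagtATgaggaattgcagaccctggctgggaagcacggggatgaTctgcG
Krt8-ps: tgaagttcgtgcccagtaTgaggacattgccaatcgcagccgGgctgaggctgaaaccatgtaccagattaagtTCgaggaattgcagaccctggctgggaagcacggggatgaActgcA

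The other tested keratins were rare, and of these 7 edgeR and DESeq2 called 0, 0 had an unadjusted p under 0.05, and limma-voom called 3 lower, Krt17, Krt222 and Krt84. Krt17 and Krt80 were highest in the 2 libraries with high Hoxa13 and Hoxb13: Krt17 reached 25.3 CPM in Control replicate 1 and 10.4 CPM in GWI replicate 5 and at most 5.29 CPM elsewhere, and Krt80 reached 7.08 and 4.60 CPM in these libraries and at most 2.11 CPM elsewhere. Krt87, which lies 724 bases from Krt7 on the opposite strand, was like Krt7 lowest of each group in these libraries, at 0.316 and 0.757 CPM. The log2 fold changes were -0.95 for Krt17, -0.39 for Krt80 and 0.62 for Krt87, with adjusted p-values of 0.267, 0.622 and 0.204. Those of Krt17 and Krt80 moved with single libraries: they were -0.13 and 0.24 without Control replicate 1, -1.60 and -0.96 without GWI replicate 5, and 0.83 and 0.93 with the muscle to epithelium covariate. Without both libraries Krt17 was at -0.78 (adjusted p = 0.140), and without Control replicate 9 as well it was called lower at -0.95 (adjusted p = 0.0328), over a range of 0.0140 to 0.859 in the alternatives. Krt10, Krt12, Krt222 and Krt84 had log2 fold changes of -0.26, 0.56, -0.34 and -0.36, with adjusted p-values of 0.124, 0.397, 0.258 and 0.317 (edgeR). That of Krt12 was 0.24 without GWI replicate 7 (adjusted p = 0.742). Krt10 was called lower with upper-quartile factors (adjusted p = 0.0408) and with scaling to the epithelial genes (0.0263), over a range of 0.0263 to 0.261, and Krt84 without GWI replicate 1 (-0.66, adjusted p = 0.0376), over a range of 0.0376 to 0.480. Exons on the opposite strand overlap Krt7 (Gm671, 77 bases), Krt8 (Gm36026, 101 bases), Krt5 (Gm44323, 129 bases), Krt10 (Gm11940, 146 bases), Krt80 (Gm35853, 263 bases) and Krt12 (A830036E02Rik, 1007 of its 1852 exon bases), and since the use of strand in counting is not given in the sources used here, reads of these pairs cannot be told apart.

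**Figure D3:**
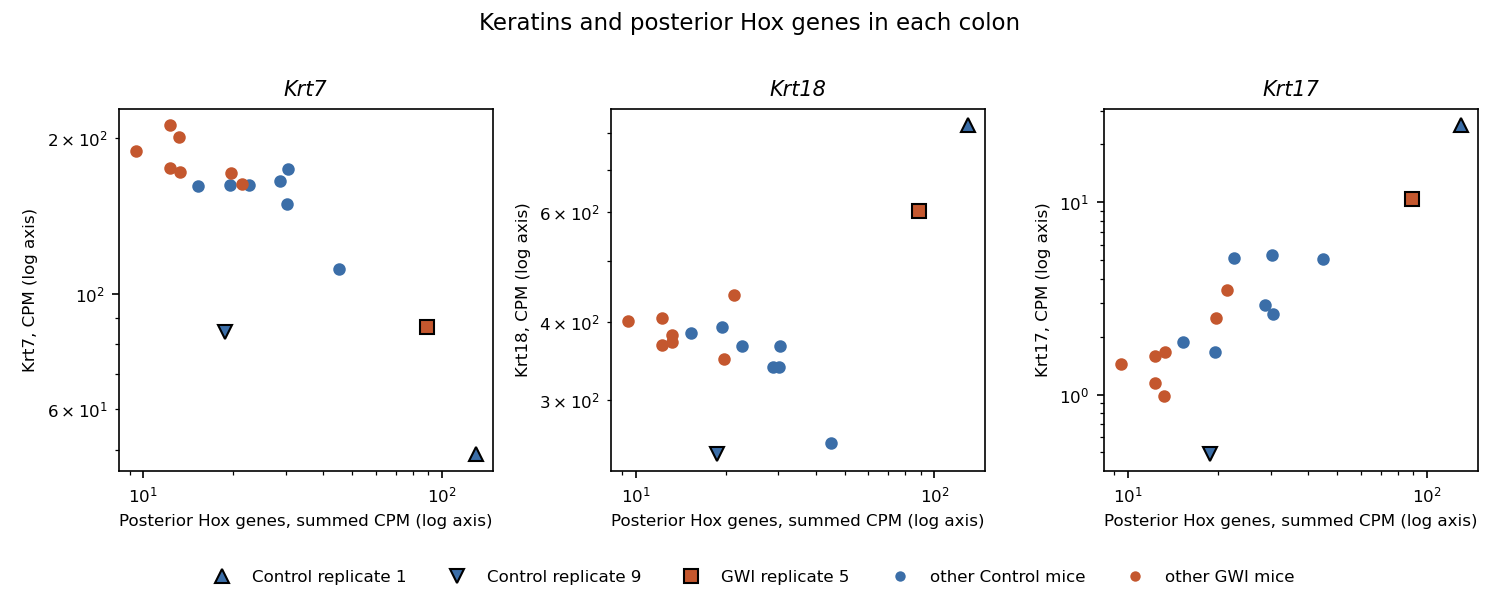
Level of Krt7, Krt18 and Krt17 in CPM against the summed CPM of 6 posterior Hox genes in each of 9 Control and 8 GWI mice, both on log axes. Control replicate 1 and GWI replicate 5, at 129.57 and 89.1 CPM of summed Hox genes, mostly Hoxa13 and Hoxb13, have the lowest Krt7 and the highest Krt18 and Krt17 of their groups.

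Genes that bind or anchor keratins had 4 of 11 tested members called higher and 0 lower, with a median log2 fold change of 0.42, while DESeq2 called 4 and limma-voom 10 higher. The 4 called by edgeR were Fam83h, a keratin-associated protein, at 0.79 (SE 0.16, adjusted p = 0.0034), Dsp, the plakin that ties keratins to desmosomes, at 0.82 (0.18, 0.00411), and the desmosomal cadherins Dsc2 at 0.49 (0.11, 0.00642) and Dsg2 at 0.71 (0.17, 0.00853). Dsp was also the most abundant, at 399 ± 149.9 CPM (SD, n = 9) in Control and 705 ± 116 CPM (SD, n = 8) in GWI colons. Their sum was 1265 to 3503 CPM in Control colons, highest in Control replicate 1, and 2197 to 3174 CPM in GWI colons. Epithelial genes of the colon that are not keratins had 7 of 12 called higher and 0 lower, with a median of 0.34, and 8 and 9 were called higher by DESeq2 and limma-voom. Those with the smallest p were Cdh1 at 0.62 (0.13, 0.00422), Elf3 at 0.71 (0.15, 0.0043), Cdx2 at 0.38 (0.09, 0.00831) and Esrp1 at 0.33 (0.09, 0.012), while the most abundant, Lgals4, had -0.11 (adjusted p = 0.454). The epithelial sum was 7344 to 10716 CPM in Control and 9200.4 to 11669 CPM in GWI colons.

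Smooth muscle genes went the other way, with 7 of 10 called lower by edgeR, 9 by DESeq2 and 10 by limma-voom, 0 higher by any, and a median of -0.91. Their sum was 3690.0 to 23923 CPM in Control colons and 3658 to 11832 CPM in GWI colons, and the most abundant, Myh11, had a log2 fold change of -1.10 (SE 0.38, adjusted p = 0.0407). Tagln at -1.17 (0.27, 0.00628), Mylk at -0.91 (0.25, 0.015) and Synpo2 at -1.06 (0.34, 0.0274) had the smallest p. Of 10 other intermediate filament genes, 2 were called lower, Nefl at -0.88 (0.30, 0.0394) and Vim at -0.64 (0.23, 0.0467), and 0 higher, and DESeq2 called 4 and limma-voom 8 lower. Their median was -0.69, and the most abundant, Des, had -0.89 (adjusted p = 0.117). With the log2 ratio of muscle to epithelial genes as a covariate, 3 keratins were called higher, Krt8 at 0.60, Krt19 at 0.76 and Krt20 at 0.95, with adjusted p-values of 0.0459, 0.0190 and 0.0380, inside the ranges given above. The same fit called 2423 of the 14146 genes higher and 2623 lower. These log2 fold changes hold at equal muscle to epithelium ratio and are not changes of the whole tissue.

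Of the remaining lists, edgeR called genes only among the skeletal muscle and small-intestine genes. Crypt base and dividing cell genes had 0 of 10 called in either direction by edgeR, 1 with an unadjusted p under 0.05, a median of -0.22 and Mki67 as the most abundant, at -0.29, and DESeq2 and limma-voom each called 1 lower. Their sum was 310 to 884 CPM in Control and 394 to 797 CPM in GWI colons. Mesothelial genes had 0 of 8 called, 1 with an unadjusted p under 0.05, a median of -0.21 and Upk1b as the most abundant, with 1 called lower by each of the other tools and sums of 10.6 to 51.0 CPM over all mice. Of 3 urothelial genes only Upk1a was tested, with a log2 fold change of 0.06, it was called by 0 of the 3 tools, and Upk2 had at most 1 count per library. Skeletal muscle genes had 2 of 4 tested members called lower, Tcap at -1.74 (0.39, 0.00513) and Ckm at -1.06 (0.32, 0.0202), Ckm being the most abundant, and a median of -0.58, with the same 2 called by each of the other tools. The mean of Mylpf and of the 6 genes that were not tested, among them Myh4 at 0.344 and 1.48 CPM, was higher in GWI colons. Small-intestine genes had 3 of 5 tested members called lower by edgeR, Fabp6, Lyz1 and Anpep at -4.40, -4.42 and -3.10 with adjusted p-values of 0.0088, 0.00897 and 0.0247, with Sis as the most abundant and a median of -3.10. DESeq2 called Fabp6, Lyz1 and Apoa1 but not Anpep, and limma-voom called 0 of the list. The highest sums were those of Control replicates 6 and 7. The median sums were 71.8 CPM in Control and 57.9 CPM in GWI colons, over ranges of 18.6 to 1467 and 12.2 to 82.3 CPM. Medians in Control and GWI colons were 5.82 and 5.37 CPM for Anpep, 5.98 and 2.03 for Fabp6 and 5.92 and 2.68 for Lyz1. Posterior Hox genes had 0 of 5 tested members called, 2 with an unadjusted p under 0.05, and a median of -1.04, with Hoxa13 as the most abundant, and DESeq2 and limma-voom each called 2 lower. The part of these tissues in the keratin results was tested only by leaving libraries out. Without Control replicates 6 and 7, Krt8 had a log2 fold change of 0.30, Krt19 of 0.43 and Krt20 of 0.38. The adjusted p-values were 0.257, 0.137 and 0.367 (edgeR).

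The genes whose log2 CPM followed each tested keratin most closely over the 17 mice, by Spearman rho, are given by rank, with all keratins left out of the ranking. For Krt8 they were Clcn2, Clic1 and Zbtb7c (rho 0.98, 0.97 and 0.96). For Krt20 they were Sfn, Jup and Mief2 (0.98, 0.98 and 0.97), of which Jup encodes the desmosomal plakoglobin. Krt19 was followed by Ush1c, Kazn and Inpp5j (each 0.92), and Krt18 by Capn13, Fam83c and Scnn1a (0.91, 0.90 and 0.90), the latter a subunit of the epithelial sodium channel. Krt7 was followed by Farp2, Polr3b and Lpo (0.96, 0.95 and 0.95). Krt23 was followed by Trpm5, a cation channel of tuft cells, at 0.88 and by Igha and Proc at 0.81. For Krt14 they were Ate1, Pkib and Mcrip2 (0.87, 0.79 and 0.76), values that rest on few counts of Krt14. All these genes were picked as the highest among all tested genes, and no rho was tested. Group means were not subtracted, so a difference between the groups can add to rho. Farp2, Lpo, Ush1c, Kazn and Inpp5j were themselves called higher in GWI colons by edgeR, and the other genes of this ranking were not called.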

How the data were processed

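The authors sequenced poly(A)-selected RNA of colon tissue as paired-end reads, trimmed them with Trimmomatic 0.36, mapped them with STAR 2.5.2b to GRCm38 (versions per the submitters' processing notes), counted unique gene hits with featureCounts and deposited a table of raw counts per mouse. The annotation release and strand setting are not given in the sources used here. Columns were matched to mice by the sample descriptions. A first part shared by some sample names has no stated meaning and was not modelled.

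Counts were filtered with filterByExpr, scaled by TMM, and tested by the robust quasi-likelihood F test (glmQLFTest) of edgeR 4.0.16 under R 4.3.3, with Benjamini-Hochberg adjustment over all 14146 tested genes and a threshold of 0.05. SE, the standard error of a log2 fold change, is its size over the square root of F. The fit and the permutation code were tested on simulated data. Log2 CPM used a prior count of 2. The 2 ratios were compared by exact permutation in Python 3.11.15, with a two-sided p of double the smaller tail. This definition was set after the self-test showed that counting absolute differences gives another p for groups of unequal size, and before any ratio was tested. The p of each correlation came from 100000 resamples (SciPy 1.17.1). Positions and exon lengths are from GENCODE M21 (GRCm38).

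Alternatives were other scalings (RLE, upper-quartile, library size, the epithelial sum), DESeq2 1.42.0, limma-voom (limma 3.58.1), no robust estimation, other filters, a replicate block, a muscle to epithelium covariate, and libraries left out. The fits without Control replicate 1 and GWI replicate 5, with or without Control replicate 9, were added after the data were seen. Named genes are the listed keratins, every other tested keratin entry, the called genes of each list (at most 4, by p) and its most abundant gene, and the 3 genes most like each tested keratin; other genes were named after their values were seen. The members and lists were chosen with earlier results of these data known. The libraries carried no molecular identifiers that are named in the sources used here, so limits from counts cover counting error only.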

Additional observations from a re-analysis of the deposited data

Results flagged for a closer look

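The values examined were the 10 keratins, the summed lists and the 2 ratios, in each of the 2 groups of mice. Of these 52 groups of values, 14 held a mouse far from the rest. The cutoff gives about 1 in 20 for independent, normally distributed values. These values share libraries and partly share genes, and their distribution was not tested, so that rate is no measure of chance here. Control replicate 1 was far above the other Control mice in Krt18 (825 CPM, the next 392), Krt20 (2713 CPM, the next 1094), Krt5 (1.14 CPM, the next 0.52), the squamous genes that are not keratins (436 CPM), the keratin-binding and desmosome genes (3503 CPM) and the posterior Hox genes (129.57 CPM). GWI replicate 5 was far above the other GWI mice in Krt18 (601 CPM, the next 441), in other intermediate filaments (3701 CPM, the next 1906) and in posterior Hox genes (89.1 CPM, the next 21.4), and far below them in Krt7 (86.1 CPM, the next 163). The remaining mice far from their group were Control replicate 3 in Krt4 (0.416 CPM), GWI replicate 7 in the summed squamous keratins (3.19 CPM), Control replicate 9 in surface colonocyte genes (37263 CPM, of which Car1 alone was 29280 CPM) and Control replicate 7 in small-intestine genes (1467 CPM). Krt5, Krt4 and the squamous sum rest on few counts. The cause of these values was not tested.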

How the results depend on the processing

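The count of keratins called higher, 0 in the main analysis, was 1 with the DESeq2 Wald test, 3 with limma-voom, 3 with the muscle to epithelium covariate, 3 without Control replicate 1 and GWI replicate 5, 4 when Control replicate 9 was also left out, and 0 to 3 when single mice were left out (3 without Control replicate 1, and 1 without Control replicate 2 or 9 or GWI replicate 1 or 8). The count called lower was 0 in all 31 alternatives. Genes called higher, 1889, moved to 1214 with upper-quartile factors, 551 with scaling to the epithelial sum, 3911 with limma-voom and 2897 without the 3 libraries, and were 2423 with the covariate, 2467 without Control replicate 1 and GWI replicate 5 and 2523 without Control replicate 1. Genes called lower, 1903, moved to 2992, 4152, 4180 and 3073 in the first 4 of these, and to 826 with the replicate block. The cause of these shifts was not tested. In the block the same numbers showed no pairing: the correlation of deviations ran from -0.51 to 0.11, and 0 of 8 mice correlated best with their own number. The block gave 1415 genes higher, 0 keratins higher, and ratio differences of 0.17 for Krt20 to Krt8 and -0.26 for Krt18 to Krt8 as means of paired differences.

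The log2 fold changes of Krt7, Krt8, Krt19, Krt20 and Krt23 were positive in all 31 alternatives, and that of Krt14 was negative in all 30 that tested it. Krt18 was positive in 28 and negative in 3. The difference in the ratio of Krt20 to Krt8 stayed positive, 0.09 to 0.25. That of Krt18 to Krt8 stayed negative, -0.34 to -0.23 when single mice were left out, with an unadjusted p under 0.05 in 4 of 17 (exact permutation), without Control replicate 2 or 4 or GWI replicate 1 or 5. Depth limits Krt5, Krt13 and Krt4.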
